A study of Mus musculus with 4 samples.

Results

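The genes described here are 7 rows of a mouse expression table of 28141 gene symbols: Wfdc17, Wfdc18, Srgn, Prtn3, Padi4, Ceacam1 and Igsf6. They were taken by symbol as genes linked to neutrophils or granules, and were partly chosen by their change in level in the knockout, so their differences between the genotypes are given as a description with no test. All 7 had a row and passed the filter on low values. The libraries came from polyadenylated RNA of leukaemia cells, which the labels call LSCs, obtained from C57BL/6 mouse bone marrow, in a series about leukaemia stem cells and chronic myeloid leukaemia. There were 2 groups of 2 libraries: LSCs-WT and LSCs-YBX1cKO, here called WT and cKO, the latter with a conditional knockout of Ybx1, the gene of a nucleic-acid-binding protein of the Y-box family. The leukaemia driver, the Cre line, the deleted exons and the age of the animals are not given in the sources used here, nor is whether replicates came from separate animals. The spread between replicates may therefore be technical.

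Neutrophils store their weapons in granules that are filled in a fixed order as the cell matures. Primary granules form first and carry serine proteases such as proteinase 3, the product of Prtn3; specific and gelatinase granules follow and carry antimicrobial proteins and metalloproteinases. Serglycin, the product of Srgn, is the proteoglycan whose sugar chains hold basic proteases and chemokines in such granules, in mast cells, platelets and lymphocytes as well as in neutrophils. WAP domain proteins, to which Wfdc17 and Wfdc18 belong, are small secreted proteins, some of which inhibit the same proteases. Padi4 encodes the enzyme that turns histone arginines into citrulline when neutrophils release extracellular traps. Ceacam1 and Igsf6 encode immunoglobulin-type membrane proteins of myeloid cells, of which CEACAM1 carries an inhibitory tail that recruits the phosphatases SHP-1 and SHP-2.

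Levels are on a log2 scale, obtained from the deposited scores by a factor inferred from replicate noise, and the depth behind them is unknown. If the scores were plain log2, every difference below would be 1.44 times as large. Folds, shares, summed levels, ratios and places per kilobase come from back-transformed levels and would change by other amounts. Ybx1 had log2 levels of 9.31 and 9.41 in the WT libraries against 8.19 and 8.13 in the cKO libraries, lower in the knockout as labelled (log2 difference -1.20, SE 0.081, limma adjusted p = 1.1e-11). In bulk libraries, a change in the share of a cell type and a change in RNA per cell cannot be told apart. Of the stem and progenitor markers, Kit and Cd34 are not analysed here, having no row. The stem cell surface gene Ly6a held place 5185 of 15166 genes by WT level per kilobase of exon, whereas the macrophage gene Adgre1 held place 12.

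Both WAP domain genes were higher in cKO. Wfdc17, also known as Amwap from activated mouse macrophages and microglia, had log2 levels of 12.26 and 12.22 in WT and of 14.01 and 13.94 in cKO. Both cKO libraries lay above both WT libraries, and the gaps between replicates were 0.036 and 0.072. The log2 difference was 1.73 (SE 0.028), a 3.33-fold higher level. Wfdc18, also known as Expi for extracellular proteinase inhibitor, had log2 levels of 7.76 and 7.91 in WT and of 10.79 and 10.75 in cKO. Again the groups did not overlap, and the log2 difference was 2.94 (SE 0.071), or 7.65-fold. Among all 15527 tested genes, it was the 7th largest difference towards cKO, and that of Wfdc17 the 61st.

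**Figure D1:**
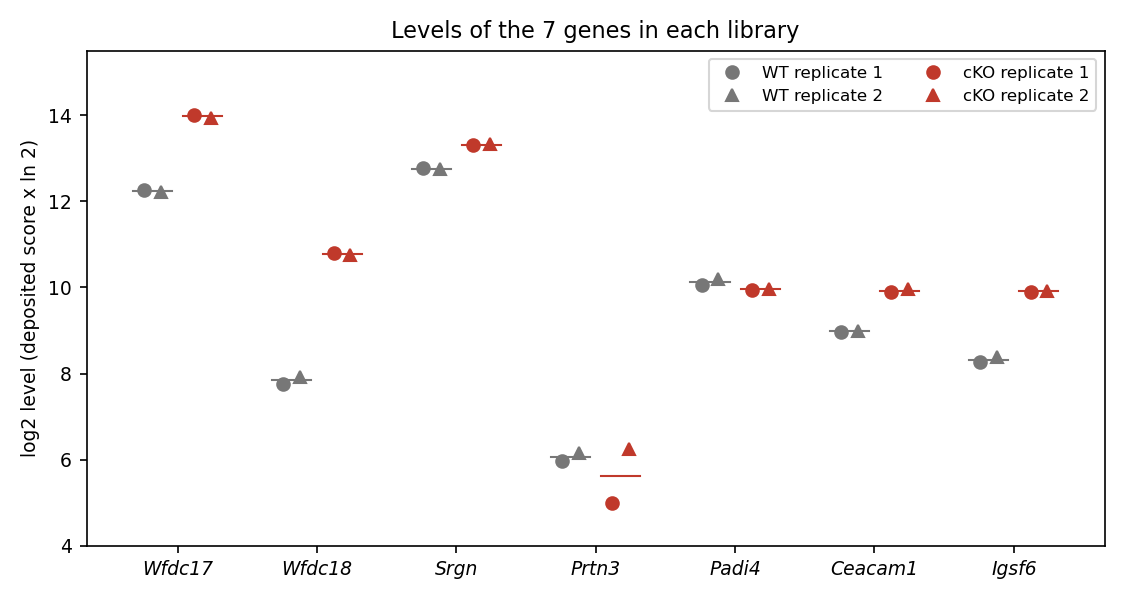
Log2 level (y axis, deposited score times ln 2) of each of the 7 genes in each library. Grey points are the 2 WT and red points the 2 cKO libraries, with circles for replicate 1 and triangles for replicate 2, and horizontal lines are group means; the groups overlap for Prtn3, whose cKO libraries stand at 4.98 and 6.24, and for no other gene shown.

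The genes of this pair differ widely in level. Per kilobase of exon, Wfdc17 moved from place 29 of 15166 in WT to place 10 in cKO, and Wfdc18 from place 3150 to place 439. The level of Wfdc17 per kilobase was 51.6 and 45.3 times that of Wfdc18 in the WT libraries and 21.3 and 20.8 times in the cKO libraries. Wfdc17 alone held 0.0439% and 0.0431% of the summed levels of the WT libraries, and 0.136% and 0.129% of those of the cKO libraries.

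Both genes lie on the forward strand of chromosome 11 in GRCm38, Wfdc17 from 83703991 to 83706268 and Wfdc18 from 83709015 to 83711348, with 2747 bases between them and 3 exons each. None of the 50-base stretches of either gene's transcripts occurred in a transcript of another annotated gene. The sequences before their RefSeq starts (GRCm38.p6) are shown because these neighbours differed in the same direction and their promoters are partly alike. Capitals mark bases that are identical in the best local alignment of the pair, at chr11:83703806-83704055 and chr11:83708754-83709003.
Wfdc17: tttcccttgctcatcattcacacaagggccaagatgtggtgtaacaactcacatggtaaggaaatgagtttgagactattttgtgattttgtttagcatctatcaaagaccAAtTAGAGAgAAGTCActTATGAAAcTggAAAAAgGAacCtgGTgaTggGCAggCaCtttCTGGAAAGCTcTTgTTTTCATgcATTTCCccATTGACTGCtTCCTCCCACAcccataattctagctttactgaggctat
Wfdc18: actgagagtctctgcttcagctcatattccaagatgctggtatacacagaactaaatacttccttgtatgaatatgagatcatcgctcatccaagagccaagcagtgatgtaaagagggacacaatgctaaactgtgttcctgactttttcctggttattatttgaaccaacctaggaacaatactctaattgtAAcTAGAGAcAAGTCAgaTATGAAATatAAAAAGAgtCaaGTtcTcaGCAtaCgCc
The RefSeq start of Wfdc17 lies downstream of its GENCODE start at 83703991, so the last bases shown for it lie within the GENCODE gene. The alignment began 139 bases before the Wfdc17 start and 56 bases before the Wfdc18 start, and ran past the Wfdc18 start into bases not shown. It covered 112 columns, of which 82 were identical (73.2%) and 7 held gaps. Against the Wfdc17 promoter, Wfdc18 had the second highest alignment score of 32850 other promoters (63, against 36 for the next). The highest, 321, belonged to Gm11430, which GENCODE annotates as an unprocessed pseudogene 8.72 kb before Wfdc17; its log2 level lay between -1.65 and -1.59 in all 4 libraries, below the filter.

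Around these genes lies a cluster of chemokine genes. In the fit across all genes, limma called 37.4% of tested genes changed, 19.5% higher and 17.8% lower in cKO. Within 250 kb of the Wfdc17 start, 10 other genes were tested, of which 3 rose, 3 fell and 4 did not pass. The next gene on the far side of Wfdc18, the third WAP gene of the block, Wfdc21, had log2 levels of 4.01 and 4.15 in WT and of 5.71 and 5.32 in cKO and rose by 1.44 (SE 0.29, limma adjusted p = 3.4e-04). The chemokine genes Ccl6 and Ccl9 also rose, by 1.58 (SE 0.026) and 0.90 (SE 0.038). Between those and Wfdc17 lie Ccl3 and Ccl4, chemokine genes that were lower in cKO, with log2 differences of -0.91 (SE 0.042) and -0.31 (SE 0.049). Ccl5, farther out, fell by 3.18 (SE 0.23). Heatr6, the gene after Wfdc21, had a log2 difference of 0.02 (SE 0.072) and did not pass. The call of Ccl4 was lost when the prior variance was not allowed to follow the level, here called a constant prior variance (adjusted p = 0.074).

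**Figure D2:**
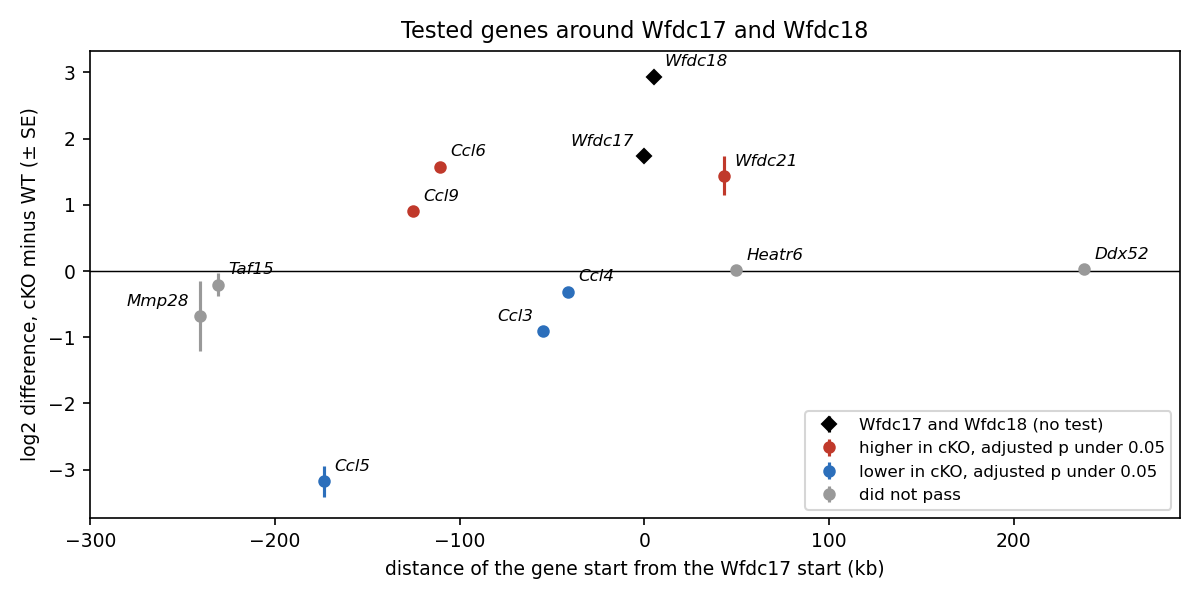
Log2 difference between cKO and WT (y axis, bars are SE, 2 libraries per group) of each tested gene against the distance of its start from the Wfdc17 start in kb (x axis). Wfdc17, Wfdc18 (black, no test) and Wfdc21 (1.44) stand above 0, with Ccl3 (-0.91) and Ccl4 (-0.31) below 0 between them and the higher Ccl6 (1.58) and Ccl9 (0.90).

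Most of the wider WAP family lay below the filter. Of 22 other family genes listed, 15 had a row and 5 were tested; of these Wfdc21 rose and 4 did not pass, and the median log2 difference was -0.07, against 0.0025 over all tested genes. Slpi, the secretory leukocyte protease inhibitor, which restrains neutrophil elastase, was the only well expressed one among the 4, with log2 levels of 11.96 and 11.97 in the WT libraries against 11.89 and 11.90 in the cKO libraries. It did not pass (log2 difference -0.07, limma adjusted p = 0.098), although it was called lower under quantile normalization (-0.18, adjusted p = 7.8e-05).

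Serglycin was moderately higher in cKO, at a high level throughout. Srgn had log2 levels of 12.77 and 12.74 in WT and of 13.30 and 13.33 in cKO, with replicate gaps of 0.026 and 0.029. The groups did not overlap, and the log2 difference was 0.56 (SE 0.026), a 1.48-fold higher level. Per kilobase of exon, it held place 136 in WT and place 91 in cKO. Srgn lies on the reverse strand of chromosome 10 from 62493833 to 62527451. The neighbours on its sides moved in opposite directions: Vps26a, a retromer gene, rose by 0.34 (SE 0.035; adjusted p = 0.057 with a constant prior variance), and the log2 difference of the helicase gene Ddx21 was -0.82 (SE 0.070).

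The genes listed for serglycin cargo, and those that build its sugar chains, did not move as a block. The cargo list also held Hdc, which encodes the enzyme that makes histamine rather than a stored product. Of 20 listed cargo genes 11 were tested; 3 rose, 5 fell and 3 did not pass (72.7% called; median log2 difference -0.51). The platelet chemokine genes Ppbp and Pf4 rose by 2.1 (SE 0.045) and 0.68 (SE 0.051), while the log2 difference was -1.44 (SE 0.081) for the granzyme gene Gzmb, -1.16 (SE 0.24) for the histidine decarboxylase gene Hdc and -0.91 (SE 0.042) for Ccl3. Without WT replicate 2 the cargo calls were 2 rises and 3 falls, and they were 2 rises and 2 falls both with no filter and with a constant prior variance. The Hdc call was lost under both (adjusted p = 0.121 and 0.142). Of 27 listed genes for chondroitin and heparin chains 20 were tested; 4 rose, 5 fell and 11 did not pass (45% called; median 0.08). The chondroitin synthase gene Chsy1 had a log2 difference of -0.94 (SE 0.19), the chain-starting enzyme gene Csgalnact1 of -0.56 (SE 0.083), and B4galt7, which builds the linker, rose by 0.50 (SE 0.075). Ndst1, a heparan sulphate enzyme gene, rose by 0.81 (SE 0.26, limma adjusted p = 0.018). Leaving out WT replicate 2 or cKO replicate 1 ended this call. So did no filter (adjusted p = 0.0736) and a constant prior variance (adjusted p = 0.056). With a constant prior variance this list had 3 calls, without B4galt7 (adjusted p = 0.0582), and with no filter 5.

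Prtn3 was the lowest of the 7 genes in level per kilobase, and its cKO replicates stood far apart. Its log2 levels were 5.96 and 6.16 in WT and 4.98 and 6.24 in cKO, so that cKO replicate 1 lay below and cKO replicate 2 above both WT libraries. The group means differed by -0.44 (SE 0.28), with a SD of 0.14 (n = 2) in WT and 0.89 (n = 2) in cKO. Without cKO replicate 1 the difference was 0.19, and without cKO replicate 2 it was -1.07, so no direction can be given. The gap of 1.26 between the cKO libraries was large for this level: of 1241 other tested genes within 0.5 log2 units of its mean level, 1 had a gap as large in cKO. For the WT gap of 0.20 the number was 602.

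**Figure D3:**
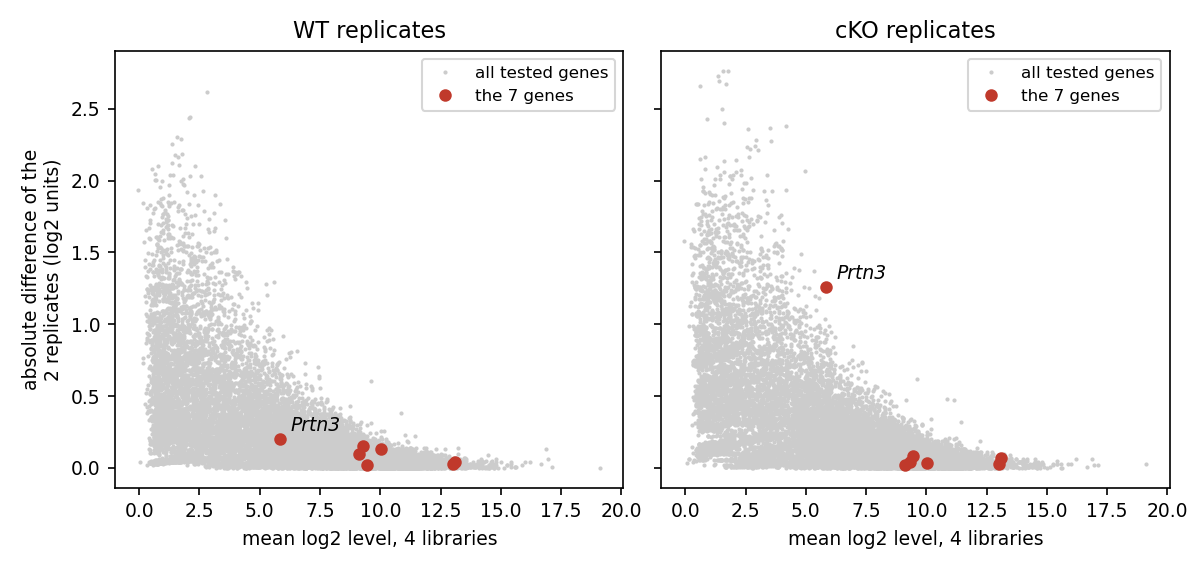
Absolute difference between the 2 replicates of WT (left) and of cKO (right) against the mean log2 level over 4 libraries, for all 15527 tested genes (grey) and the 7 genes (red). Prtn3 stands apart in cKO, at 1.26, and not in WT, at 0.20.

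Prtn3 lies on the forward strand of chromosome 10 from 79874476 to 79883174, in a region with other neutrophil serine protease genes. It overlaps Plppr3, on the other strand, by 159 exonic bases, which is 9.18% of its exon length, and whether counting used strand is not given in the sources used here. Plppr3 was itself low, at mean log2 levels of 3.29 in WT and 2.103 in cKO; its fall (-1.18, SE 0.44, limma adjusted p = 0.035) was lost without WT replicate 1 (adjusted p = 0.083), WT replicate 2 (adjusted p = 0.265) or cKO replicate 1 (adjusted p = 0.0645). The nearest protein-coding genes with a row were Ptbp1, a splicing regulator gene that fell by 0.75 (SE 0.052), and Cfd, the gene of complement factor D, which was not tested at mean log2 levels of -0.45 and -0.31. Of 26 other tested genes within 250 kb, 7 rose, 4 fell and 15 did not pass. Among those that did not pass was Prss57, a primary granule protease gene, with a log2 difference of -0.37 (SE 0.28).

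The Prtn3 promoter is shown for a match to the core motif of PU.1, the myeloid regulator encoded by Spi1. At chr10:79879417-79879666 on the forward strand (RefSeq, GRCm38.p6), the capitals mark the match, which begins 95 bases before the start. This RefSeq start lies downstream of the GENCODE start at 79874476, where the overlap with Plppr3 lies.
Prtn3: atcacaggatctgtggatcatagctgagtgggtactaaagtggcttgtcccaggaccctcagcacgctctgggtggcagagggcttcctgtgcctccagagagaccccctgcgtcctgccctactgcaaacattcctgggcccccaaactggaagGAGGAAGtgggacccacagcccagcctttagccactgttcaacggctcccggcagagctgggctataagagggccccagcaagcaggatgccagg
The motif GAGGAAG, on either strand, occurred in 2 of the 8 promoters of the 7 genes (Srgn has 2) and in 10.6% of all 32851 promoters. The other was that of Wfdc17, where it begins 40 bases before the RefSeq start on the other strand. That match lies downstream of the GENCODE start of Wfdc17 at 83703991. The C/EBP motif TTGCNNAA and the STAT motif TTCNNNGAA occurred in 0 of the 8, and in 9.56% and 7.02% of all promoters. The inverted CCAAT box ATTGG, from which Y-box proteins take their name, occurred in 1 of the 8, that of Wfdc17, and in 33.8% of all promoters. Motifs did not overlap each other within these promoters.

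Genes listed for primary granules, other than Prtn3, rose more often than they fell where they could be tested. The only granule serine protease gene of the list that was tested, Prss57, was not among the rises. Of 12 listed, of which Mpo, Elane and Ctsg had no row and are not analysed here, 7 were tested; 4 rose, 1 fell and 2 did not pass (71.4% called; median 0.34). The lysozyme gene Lyz2, which macrophages also express, rose by 2.25 (SE 0.018), the granule membrane gene Cd63 by 0.49 (SE 0.021) and Ctsc, whose product activates the granule serine proteases, by 0.37 (SE 0.026). Fuca1 rose by 0.34 (SE 0.035), and the log2 difference of the lysosomal enzyme gene Gusb was -0.42 (SE 0.052). The genes that did not pass were Prss57 (log2 difference -0.37) and the second lysozyme gene Lyz1 (0.30). Bpi had a row but lay below the filter. With a constant prior variance the list had 2 calls, both rises. The calls of Ctsc and Gusb were among those lost (adjusted p = 0.058 and 0.078).

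Later granules and mature neutrophils showed more rises than falls. Of the 18 genes in the specific granule list 7 were tested; 6 rose, 0 fell and Slpi did not pass (85.7% called; median 0.58). The collagenase gene Mmp8 rose by 2.75 (SE 0.052), the olfactomedin gene Olfm4 by 1.08 (SE 0.13) and the calponin gene Cnn2 by 0.58 (SE 0.046). Of 8 gelatinase granule genes 4 were tested; 3 rose and Slc11a1 did not pass (75% called; median 0.96). The gelatinase gene Mmp9 rose by 1.67 (SE 0.033), the membrane protease gene Adam8 by 1.07 (SE 0.018) and the lectin gene Clec12a by 0.86 (SE 0.13). Of 23 mature neutrophil genes, Padi4 not among them, 15 were tested; 13 rose, 1 fell and 1 did not pass (93.3% called; median 1.59). Mmp8 and Mmp9 are in this list too and are counted again among its rises. The formyl peptide receptor gene Fpr1 rose by 1.79 (SE 0.096) and the stefin gene Stfa2l1 by 1.80 (SE 0.12). The member that fell was Pglyrp1 (-0.27, SE 0.10, limma adjusted p = 0.046), which was not in the granule lists. It encodes a peptidoglycan recognition protein that neutrophils store in granules. Its call ended when WT replicate 1 or cKO replicate 2 was left out. That call also ended with quantile normalization (adjusted p = 0.128), median scaling (adjusted p = 0.124), no filter (adjusted p = 0.157) or a constant prior variance (adjusted p = 0.175). The defining neutrophil genes S100a8, S100a9 and Ly6g are not analysed here, having no row.

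**Figure D4:**
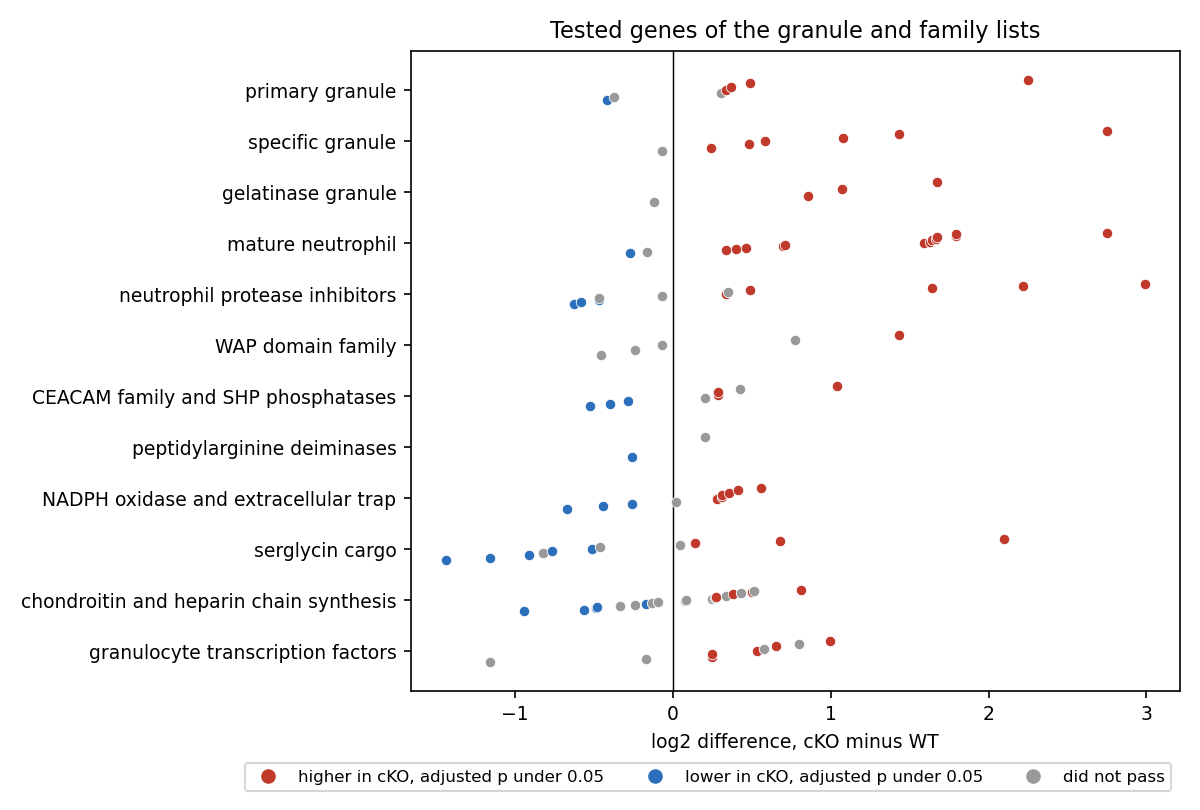
Log2 difference between cKO and WT (x axis) of each tested gene in 12 lists of granule, family and partner genes (rows), without the 7 genes themselves. Each point is 1 gene, red where it was higher and blue where it was lower at a limma adjusted p under 0.05, grey where it did not pass; in the mature neutrophil row 13 of 15 points are red, and in the serglycin cargo row 5 of 11 are blue.

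Inhibitors of proteases went both ways, with Slpi again among them, and Stfa3 again from the mature neutrophil list. Of 15 listed 11 were tested; 5 rose, 3 fell and 3 did not pass (72.7% called; median 0.34). The cysteine protease inhibitor genes Stfa1, Stfa2 and Stfa3 rose by 2.99 (SE 0.059), 2.22 (SE 0.13) and 1.64 (SE 0.086); their sequences are nearly the same, so the counting may have divided reads among them. Serpinb1a, whose product inhibits neutrophil serine proteases, had a log2 difference of -0.63 (SE 0.088), and lost its call with a constant prior variance (adjusted p = 0.053).

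Padi4 was slightly lower in cKO. Its log2 levels were 10.07 and 10.19 in WT and 9.94 and 9.98 in cKO. The groups did not overlap, but their means lay little farther apart than the WT libraries did (a gap of 0.12). The log2 difference was -0.17 (SE 0.057), a 1.13-fold lower level, and it ranged from -0.23 without WT replicate 1 to -0.11 without WT replicate 2. Padi4 lies on the reverse strand of chromosome 4 from 140745865 to 140774236, in a cluster with Padi6, 3.22 kb away, and Padi3, 11.1 kb away. Both neighbours were low, at mean log2 levels of 0.31 and 0.67 in WT, with Padi6 not tested and Padi3 not passing (log2 difference 0.20, SE 0.56). Of the 4 other deiminase genes 2 were tested (50% called; median -0.03), and Padi2, the broadly expressed relative, fell by 0.26 (SE 0.064, limma adjusted p = 2.0e-03). That call was lost with a constant prior variance (adjusted p = 0.106).

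Of the genes that act beside Padi4 in the oxidative burst and in extracellular traps, 12 were listed and 10 tested; 6 rose, 3 fell and 1 did not pass (90% called; median 0.29). The log2 difference of the nuclear protein gene Hmgb1 was -0.44 (SE 0.036). The membrane oxidase subunit gene Cybb fell by 0.67 (SE 0.27, limma adjusted p = 0.0496). That call was lost when WT replicate 1, WT replicate 2 or cKO replicate 2 was left out. It was also lost with quantile normalization (adjusted p = 0.063), median scaling (adjusted p = 0.072), no filter (adjusted p = 0.147) or a constant prior variance (adjusted p = 0.102). Rac1 rose by 0.56 (SE 0.17), a call lost with no filter (adjusted p = 0.155), with a constant prior variance (adjusted p = 0.165) and without WT replicate 1. The Hmgb1 call was lost with a constant prior variance (adjusted p = 0.0526), under which this list had 1 call, a rise; with no filter it had 5.

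Ceacam1 was higher in cKO. Its log2 levels were 8.98 and 8.998 in WT and 9.88 and 9.97 in cKO. The groups lay far apart beside replicate gaps of 0.022 and 0.082, and the log2 difference was 0.94 (SE 0.065), or 1.92-fold. Ceacam1 lies on the reverse strand of chromosome 7 from 25461707 to 25477603. Of its 6044 50-base transcript stretches, 30.4% also occur in other genes, nearly all of them in its neighbour Ceacam2 (29.6%), so its value is uncertain as far as reads were split. Ceacam2 had log2 levels of 6.15 in both WT libraries and of 6.52 and 6.64 in the cKO libraries, and did not pass (log2 difference 0.43, SE 0.18, limma adjusted p = 0.065), although it was called higher under quantile normalization (adjusted p = 0.0387), median scaling (adjusted p = 0.0315) and a stricter filter (adjusted p = 0.0474).

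A list of 18 genes held other CEACAM genes, phosphatases that act downstream and Havcr2, the gene of the receptor TIM-3, which binds CEACAM1; 8 were tested, of which 3 rose, 3 fell and 2 did not pass (75% called; median 0.24). The rises were Ceacam18, Ceacam16 and Havcr2 (0.29, SE 0.086). With a constant prior variance the list had 1 call, and with no filter 4. The genes of the phosphatases that bind the CEACAM1 tail were lower: Ptpn6, which encodes SHP-1, had a log2 difference of -0.40 (SE 0.043), and Ptpn11, which encodes SHP-2, of -0.52 (SE 0.16, limma adjusted p = 0.014). The Ptpn11 call was lost without WT replicate 1 (log2 difference -0.20) and under quantile normalization (adjusted p = 0.0555). It was also lost with no filter (adjusted p = 0.321) and with a constant prior variance (adjusted p = 0.302). The Ptpn6 call was lost with a constant prior variance (adjusted p = 0.057). Ceacam18 rose by 1.04 (SE 0.18). Ceacam16 rose by 0.29 (SE 0.098, limma adjusted p = 0.022), a call lost without WT replicate 1 (adjusted p = 0.123) or WT replicate 2 (adjusted p = 0.072).

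Igsf6 was 2.996-fold higher in cKO. Its log2 levels were 8.28 and 8.37 in WT and 9.90 and 9.92 in cKO. With replicate gaps of 0.095 and 0.017 the groups did not overlap, and the log2 difference was 1.58 (SE 0.072). Igsf6 lies on the reverse strand of chromosome 7 from 121064067 to 121074572, within the span of the methyltransferase gene Mettl9, which is on the forward strand. No exonic base is shared between them, but unspliced Mettl9 RNA would span the Igsf6 exons on the other strand. Mettl9 rose as well, by 1.08 (SE 0.071, limma adjusted p = 6.7e-12), from mean log2 levels of 8.72 to 9.80. The flanking genes Otoa and Mfsd13b were not tested, at mean log2 levels below 0 in WT.

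Across the 7 genes, the groups did not overlap for 6, against 65.1% of all tested genes, and 5 of these were higher in cKO, against 32.7% of all tested genes. As the genes were partly chosen by these differences, nothing is read from those counts. The median of their log2 differences was 0.94. Together their levels summed to 1257 and 1259 per 1000000 in the WT libraries and to 2584 and 2536 in the cKO libraries. Serglycin made up 49.7% and 49.1% of this sum in WT and 32.3% and 33.5% in cKO, while Wfdc17 made up 34.9% and 34.2% in WT and 52.7% and 51.0% in cKO.

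Other genes with a like pattern were looked for by the distance between levels centred on each gene's mean over the 4 libraries, among 12325 other tested genes. Near Wfdc18 the field was sparse: 9 genes lay within 0.5 log2 units, the nearest being Stfa1 (distance 0.15) and the steroid enzyme gene Hsd11b1 (0.17). Near Wfdc17 there were 73, led by Crisp1 (0.042) and Slfn1 (0.045), and near Igsf6 106, led by Sfxn5 (0.040) and the urokinase receptor gene Plaur (0.077). Near Prtn3 there were 171, led by Dchs1 (0.11) and Folr1 (0.14), both at log2 levels under 2. For Ceacam1 1263 genes lay this near, led by Itgb7 and Mxi1, for Srgn 3974, led by Actr2 and Rheb, and for Padi4 6773, led by Wdr74 and Tgfbrap1, so that many genes share these patterns.

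Among 13 regulators of granulocytes 9 were tested; 5 rose, 0 fell and 4 did not pass (55.6% called; median 0.53). Cebpe, which directs specific granule genes, rose by 0.998 (SE 0.045), the retinoic acid receptor gene Rara by 0.65 (SE 0.090) and Spi1 by 0.53 (SE 0.052). Cbfb rose by 0.25 (SE 0.087, limma adjusted p = 0.025), a call lost without WT replicate 1 (adjusted p = 0.0999), WT replicate 2 (adjusted p = 0.0856) or cKO replicate 2 (adjusted p = 0.166). The list had 3 calls without WT replicate 1, with no filter and with a constant prior variance. Gfi1, a repressor active in granulocyte precursors, did not pass, with log2 levels of 2.83 and 2.62 in the WT libraries against 0.74 and 2.39 in the cKO libraries.

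Markers of other marrow cells moved too, and their part in the differences above was not tested. Of 6 tested monocyte and macrophage markers 4 rose (66.7% called; median 0.49), with log2 differences of 1.17 (SE 0.054) for Cd14, 0.77 (SE 0.034) for Cd68 and 0.63 (SE 0.065) for Ccr2. Adgre1 rose by 0.09 (SE 0.015) but was called lower under quantile normalization (-0.20). Its call was also lost with a constant prior variance (adjusted p = 0.395). The summed level of the 8 markers with a row was 5538 and 5640 per 1000000 in WT and 5655 and 5746 in cKO, of which Adgre1 alone made up 5165 and 5264 in WT and 5050 and 5138 in cKO. Cd14 went from 65.3 and 69.9 per 1000000 in WT to 137 and 141 in cKO. Of 5 mast cell and basophil markers 2 rose and 2 fell, with sums of 519 to 526 in WT and 492 to 498 in cKO; Cd200r3 rose by 0.42 (SE 0.045) and Gata2 had a log2 difference of -0.43 (SE 0.045). Cpa3 rose by 0.14 (SE 0.042), a call lost without WT replicate 2 (adjusted p = 0.0711) or cKO replicate 1 (adjusted p = 0.0601), and also with quantile normalization (adjusted p = 0.322). With a constant prior variance Gata2 was the 1 call of this list, and Cd200r3 had an adjusted p = 0.0582.

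Both tested T and NK cell markers, Gzmb and Lat (-0.55, SE 0.076), were lower, with sums of 136 and 137 in WT and 59.7 and 63.7 in cKO, while the T cell receptor genes Cd3d, Cd3e and Cd3g are not analysed here. Of 5 erythroid markers 0 rose and 3 fell, with sums of 197 to 208 in WT and 139 to 150 in cKO: Hemgn had a log2 difference of -1.31 (SE 0.18), Tfrc of -0.51 (SE 0.071) and Gata1 of -0.22 (SE 0.060; adjusted p = 0.0596 without cKO replicate 2). With a constant prior variance none of these 3 was called (adjusted p = 0.0772, 0.0574 and 0.168). Of 8 megakaryocyte markers 2 rose and 2 fell, with sums of 485 to 507 in WT and 679 to 695 in cKO; beside Ppbp and Pf4, the integrin genes Itgb3 and Itga2b had log2 differences of -1.90 (SE 0.12) and -0.21 (SE 0.043), the latter call lost with no filter (adjusted p = 0.0842) and with a constant prior variance (adjusted p = 0.186). Of 6 endothelial and stromal markers 2 fell, Pecam1 by 0.85 (SE 0.035) and Tek by 1.44 (SE 0.47). The Tek call was lost with no filter (adjusted p = 0.153) and without WT replicate 1, where its log2 difference was -1.20. Sums of this list were 450 to 471 in WT and 232 to 239 in cKO. Pecam1 alone made up 448 and 468 of these in WT and 229 and 237 in cKO. Of 6 stem and progenitor markers 3 fell, Mecom by 0.60 (SE 0.039), Gata2, and Ly6a by 0.69 (SE 0.20), the last lost without WT replicate 2 (adjusted p = 0.208), and sums were 566 to 578 in WT and 377 to 382 in cKO. The 1 tested B cell marker, Cd79b, rose by 0.26 (SE 0.10), a call lost without WT replicate 1 (adjusted p = 0.261), WT replicate 2 (adjusted p = 0.0624) or cKO replicate 1 (adjusted p = 0.201), with sums of 22.0 to 23.9 in WT and 24.05 to 26.4 in cKO. The 1 eosinophil marker with a row, Siglecf, was low in every library and did not pass (log2 difference 0.22, SE 0.48), with sums of 0.281 to 0.412 in WT and 0.337 to 0.392 in cKO.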

How the data were processed

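RNA-seq of 2 WT and 2 cKO libraries was analysed from 1 table of 28141 genes. Its values, which the authors deposited, are a score for each gene in each library, between -3.19 and 27.9, on a log scale whose base and transformation are not given in the sources used here. The submitters' processing notes name CASAVA, HISAT2 2.1.0, featureCounts, DESeq2 and the GRCm38 build, without saying how each was applied. Columns were matched to samples through their titles, and the number of value columns not used was 0.

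The scale was inferred from replicate noise. If back-transformed levels behave like reads, the SD between replicates should be near Poisson noise. In bins of scores from 5 to 16, the observed SD was 1.13 (WT) and 1.34 (cKO) times Poisson noise, as a median, when scores were taken as log2 levels times 1.44, against 5.10 and 5.89 for plain log2 and 37.2 and 42.5 for natural logarithms. Scores were therefore multiplied by 0.693 (ln 2). Back-transformed levels summed to between 11074317 and 12134026 per library. Whether these are counts is not known, so the depth is unknown and no counting interval is given.

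limma 3.58.1 (R 4.3.3; lmFit, eBayes, mean-variance trend) was run on the 15527 genes that scored 1 or more in 2 libraries or more, without a pseudocount. Its p-values are two-sided, adjusted by Benjamini-Hochberg across those genes, with 0.05 as threshold. Differences are cKO minus WT, with SE from the moderated variance. The method was tested on simulated data. With 2 libraries a group, the p-values reflect no more than the spread between these libraries.

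The 7 genes, 12 granule, family and partner lists and 9 marker lists were chosen with earlier results of these data known. Of each list, up to 4 called genes with the largest difference could be named, or up to 2 measured genes where none was called, besides the 2 genes nearest in pattern and the closest protein-coding neighbour with a row on each side of the 7 genes. Slpi, Pglyrp1, Gfi1, Prss57, Slc11a1, Fuca1, Bpi, Mettl9, Plppr3, Gm11430 and genes near Wfdc17 were chosen after their values were seen. Positions, exon lengths and 50-base stretches are those of GENCODE M21 (GRCm38), which held 27216 of the symbols. Promoters come from RefSeq (GRCm38.p6), where all 7 genes matched. Motifs were searched in the 250 bases before each start, and local alignments (Biopython 1.88; match 2, mismatch -3, gap opening -5, extension -2) used windows of 300 bases that end 50 bases after it. Tables and plots were made in Python 3.11.15 (numpy 2.4.6, pandas 2.3.3, matplotlib 3.10.9).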

Additional observations from a re-analysis of the deposited data

How the results depend on the processing

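The alternatives were other filters, scalings, prior variances and thresholds, a reading as plain log2, a replicate block and leaving out each library. Of 84 values of the 7 genes under them, 71 kept their direction and moved by less than the SD between replicates. This count overstates stability. Changing only the filter, the prior variance or the replicate block cannot move a difference of group means, so those values were fixed in advance. With 2 libraries per group, leaving 1 out cannot shift a difference by more than the SD between replicates. Those values could therefore fail only by a reversed sign. A reading as plain log2 cannot change a direction. Quantile normalization gave 1.54 for Wfdc17 and 0.39 for Srgn, and median scaling gave 1.80 for Wfdc17, 1.0 for Ceacam1, 1.65 for Igsf6 and 0.63 for Srgn. Read as plain log2, which multiplies each difference by 1.44, values were 2.50 for Wfdc17, 4.23 for Wfdc18, 1.35 for Ceacam1, -0.25 for Padi4, 2.28 for Igsf6 and 0.81 for Srgn. With 1 library left out, differences ran from 1.70 to 1.77 for Wfdc17, 2.86 to 3.01 for Wfdc18, 0.90 to 0.98 for Ceacam1, -0.23 to -0.11 for Padi4, 1.53 to 1.63 for Igsf6, 0.55 to 0.58 for Srgn and -1.07 to 0.19 for Prtn3, whose sign reversed without cKO replicate 1. When the prior variance was not allowed to follow the level, 2267 genes were called in place of 5803, 33 of the 103 tested granule and family list genes in place of 71, and 12 of the 39 marker genes in place of 22; the cause was not tested. Other alternatives kept these counts within 1.5 times. Adgre1 reversed under quantile normalization (-0.20). Of 68 named genes whose calls were followed through the refits, 40 kept their call and direction under all 12. The losses given above for a gene are not always all of its losses. Cbfb, Cd79b, Cpa3, Gata1, Ly6a and Plppr3 also lost their calls with no filter. So did Ceacam16, Cbfb, Cd79b and Ly6a with a constant prior variance. The labels do not say that replicate numbers mark shared animals or days, and same-numbered libraries did not deviate together (r = 0.0127 over 15527 genes); with a replicate block 6026 genes were called. Depth is unknown, so no detection limit is given.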
